A study of Mus musculus with 1024 samples.

Results

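The aortic intima of the mouse is not a uniform sheet, and 198 of 467 endothelial cells from the aorta were taken here as members of the population marked by Frzb, Thbs1, Calcrl, Procr and Smoc1. The members were chosen from the measured values. A well of the Cd31+Cd45- gate was eligible when it held at least 20000 gene counts, at least 500 genes and a Cdh5 count, and when the sum of H2-Aa, H2-Eb1, Cd74 and H2-Ab1, all of antigen presentation by MHC class II, was under 1000 CPM (counts scaled to a common total per well). For each eligible well the score was the mean z of Frzb, Thbs1, Calcrl, Procr and Smoc1 minus the mean z of Gkn3, Nt5e, Bpgm, Fbln5 and Col8a1, with z taken over ln(1 + counts per 10000), and wells above 0.3 were members. The other 269 eligible wells are called the rest. The series holds 1024 wells, of which 784 passed the limits on counts and genes.

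Single cells were sorted from the luminal side of aortas of 3-month-old mice and sequenced with Smart-seq2, a plate method that reads whole transcripts without molecular identifiers. The WT and KO mice carry the same strain label, which combines a loxP-flanked Amotl2, the tamoxifen-inducible endothelial Cdh5 Cre driver and a ROSA26-EYFP reporter, on a C57BL/6 background. Tamoxifen was injected into adult mice to delete Amotl2, and Cre acts only in cells that use the Cdh5 promoter. Whether the WT mice carried Cre or were injected is not given in the sources used here. Cells were pooled from several animals in each of 2 sorts, which gives 4 samples, and no well is tied to a mouse. In sort 1 each genotype had its own plate, and the effects of plate and of genotype cannot be told apart in it, whereas sort 2 held both genotypes on the same plate. Each sample counts as 1 replicate, and p-values therefore measure only the spread between sorts.

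Endothelial cells line all vessels, and those of arteries are set apart by connexins, Notch components and the transcription factor Sox17. Within the aorta, neighbouring endothelial cells can differ in secreted antagonists of Wnt and BMP signals, in receptors for vasodilator peptides and in anticoagulant surface proteins. Of the genes that raise the score, all but Thbs1 fall in these groups. Frzb is a secreted Wnt antagonist and Smoc1 a secreted matrix protein that acts on BMP signals. Calcrl is the receptor for adrenomedullin and CGRP, and Procr the endothelial protein C receptor. Thbs1 is the matrix glycoprotein thrombospondin-1.

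The score ran without a gap from -2.77 to 2.42, with a median of -0.01 over all eligible wells, so the members are a range of a continuous score and not a separate cluster. The member with the lowest score had 0.306 and the highest of the rest had 0.297, and 26 wells lay within 0.1 of the threshold. Of the 198 members, 129 had a positive mean z for the Frzb side and a negative mean z for the Gkn3 side, 33 were positive on both and 36 were negative on both. The last group entered through low Gkn3-side genes alone.

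**Figure D1:**
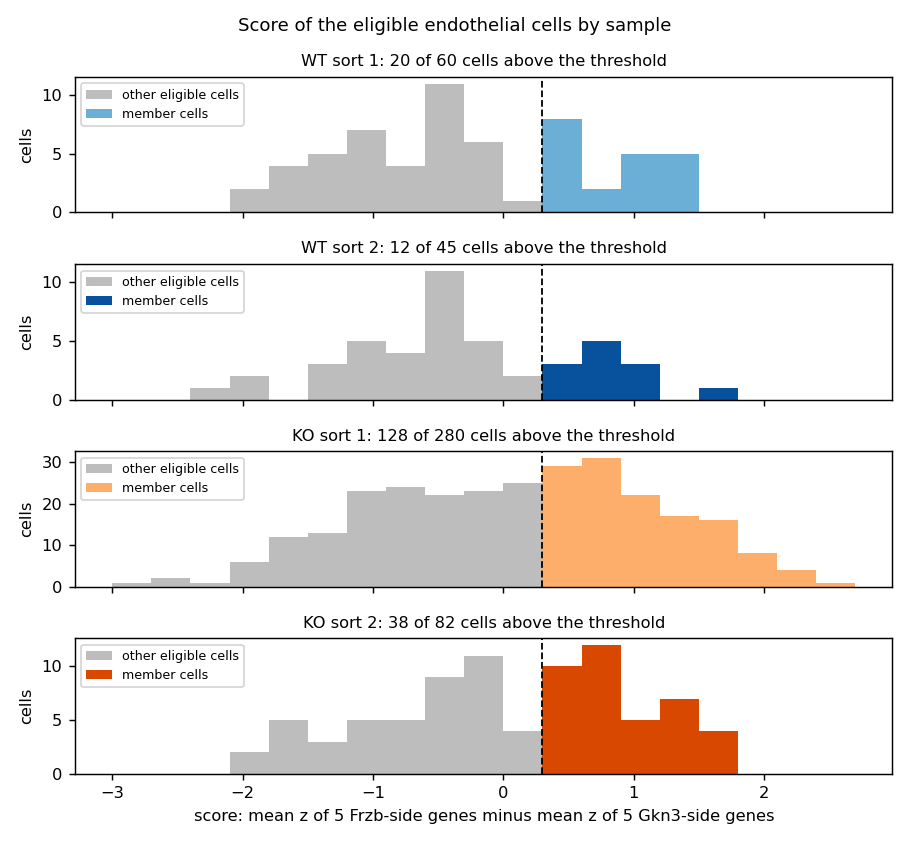
Score of every eligible well, by sample; the horizontal axis is the score (difference of 2 mean z values, no unit), the vertical axis the number of cells, and the dashed line the threshold of 0.3. Coloured bars are members and grey bars the rest: 20 of 60 cells in WT sort 1, 12 of 45 in WT sort 2, 128 of 280 in KO sort 1 and 38 of 82 in KO sort 2, with no gap at the line.

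All 198 members had a Cdh5 count, which the rule required, and their Pecam1 level ran from 5407 to 8574 CPM over the 4 samples, close to the 6909 to 8233 CPM of the rest. Of 8 leukocyte markers none reached a mean of 10 CPM, and their sum stayed between 0 and 6.07 CPM in members. Smooth muscle markers summed to 394 CPM in WT sort 1, 756 in WT sort 2, 2150 in KO sort 1 and 893 in KO sort 2 in members, against 21433 to 54205 CPM in the Cd31-Cd45- cells. Fibroblast markers summed to between 192 and 442 CPM in members and to between 4121 and 31481 CPM in the Cd31-Cd45- cells.

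The name Frzb/Thbs1-type describes these cells only in part. Calcrl was counted in 98.5% of members and Procr in 97.5%, with Smoc1 at 91.9% and Frzb at 83.8%, but Thbs1 was counted in only 54.5%. In the rest the shares were 67.3% for Calcrl, 84.4% for Procr, 77.7% for Smoc1, 50.6% for Frzb and 46.5% for Thbs1. In Cd31-Cd45- cells, which should lack endothelial genes, Frzb was counted in 12.0%, Thbs1 in 8.33%, Procr in 7.41% and Calcrl in 32.4%, but Smoc1 in 66.7%. Counts of Smoc1 were thus common outside the endothelial gate. Frzb and Thbs1 were counted together in 106 of 198 members (53.5%) and in 95 of 269 of the rest (35.3%).

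The members of WT sort 1 stood apart from those of the other 3 samples. Nr2f2, the transcription factor COUP-TFII known from veins, was counted in 12 of 20 members there, in 0 of 12 in WT sort 2, in 5 of 128 in KO sort 1 and in 1 of 38 in KO sort 2. Cd36, a fatty acid transporter and thrombospondin receptor of capillary endothelium, was counted in 8 of the same 20 cells, each of which also held Nr2f2. None of these 12 cells had a Thbs1 count and 1 had a Frzb count, whereas of the 8 other members of that sample 4 had Thbs1 and 8 had Frzb. The summed level of capillary markers was 3723 CPM in members of WT sort 1 against 18.8, 393 and 193 CPM in members of WT sort 2, KO sort 1 and KO sort 2. With each cell thinned to 20000 counts, which no eligible cell fell below, Thbs1 was found in 20% of members of WT sort 1 and in 58.3%, 48.4% and 60.5% of those of WT sort 2, KO sort 1 and KO sort 2. Results are therefore also given without the wells that hold a count of Nr2f2 or Cd36, which leaves 179 members among 430 cells, a choice made after seeing the data. In WT sort 2 the deepest member well held 39.7% of all member counts, against 19.1% in WT sort 1, 2.39% in KO sort 1 and 8.95% in KO sort 2.

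**Figure D2:**
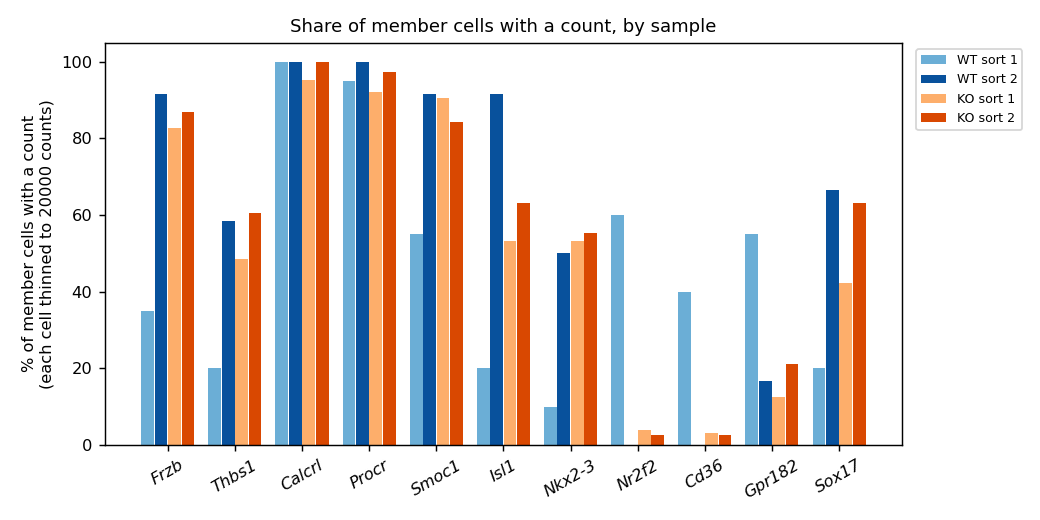
Percent of member cells with a count of each gene after thinning every cell to 20000 counts, with a bar for each sample. Nr2f2, Cd36 and Gpr182 were found most often in WT sort 1 (60.0%, 40.0% and 55.0%), where Frzb, Thbs1, Isl1, Nkx2-3 and Sox17 were found least often.

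The levels of the score genes were as follows, in CPM of the summed cells after scaling by trimmed mean of M-values (TMM), and they are descriptions, since the score used them. Frzb lies on chr2:80411970-80447625 on the minus strand (GRCm38, GENCODE M21). In members Frzb was at 232 CPM in WT sort 1, 232 in WT sort 2, 775 in KO sort 1 and 1054 in KO sort 2, and in the rest at 40.1, 85.6, 166 and 149 CPM in the same order. Every member sample was thus above every sample of the rest, and the KO samples were above the WT samples in both classes. Thbs1 (chr2:118111876-118127133, plus strand) was at 826, 952, 1376 and 2088 CPM in members and at 345, 692, 274 and 590 CPM in the rest. The lowest log2 ratio of members to rest for Thbs1 was 0.46, in WT sort 2. It rose to 1.15 there without the deepest well.

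Calcrl (chr2:84330626-84425411, minus strand) was in members at 1624, 1132, 1090 and 1378 CPM, and in the rest at 268, 336, 292 and 241 CPM. Its log2 ratio lay between 1.75 and 2.60 in the 4 samples. In WT sort 1 without the Nr2f2 or Cd36 wells, Calcrl was at 812 CPM in members and at 135 CPM in the rest, with a log2 ratio of 2.59. Procr (chr2:155751117-155755471, plus strand) was at 711, 693, 675 and 719 CPM in members and at 297, 341, 268 and 372 CPM in the rest. Smoc1 (chr12:81026808-81186414, plus strand) separated the classes least, with 206, 465, 771 and 610 CPM in members against 170, 437, 414 and 309 CPM in the rest. Its log2 ratio in WT sort 2 was 0.09, and it was -0.04 without the deepest well.

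The genes of the Gkn3 side were lower in members in all 4 samples, as the rule selects. Gkn3, a secreted gastrokine known as an arterial endothelial gene in mice, was at 135, 351, 351 and 374 CPM in members and at 1306, 973, 1190 and 1097 CPM in the rest. Col8a1, a short-chain collagen of the subendothelium, was at 64.6, 8.22, 16.8 and 27.3 CPM in members and at 210, 130, 118 and 200 CPM in the rest. Nt5e, the ectonucleotidase CD73, ran from 61.0 to 226 CPM in members and from 320 to 542 CPM in the rest. Bpgm, the bisphosphoglycerate mutase, ran from 63.9 to 258 CPM in members and from 515 to 587 CPM in the rest. Fbln5, an elastic fibre protein, ran from 824 to 1928 CPM in members and from 2183 to 3757 CPM in the rest.

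**Figure D3:**
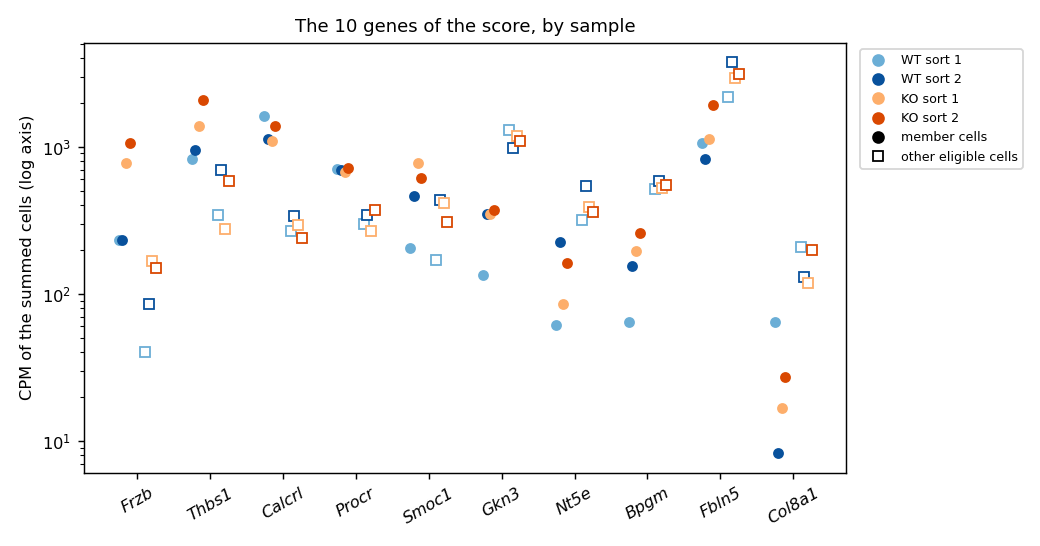
Level of the 10 score genes in each sample (CPM of the summed cells, log axis), with filled circles for members and open squares for the rest. The classes do not overlap for Frzb, Thbs1, Calcrl, Procr and each of the Gkn3-side genes, and they overlap for Smoc1 (206 to 771 CPM in members, 170 to 437 CPM in the rest).

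The 5 Frzb-side genes did not form a single block within the eligible cells. Over the 467 cells, which share libraries and depth, Pearson's r of the scaled values was 0.50 for Frzb with Thbs1, 0.47 for Frzb with Smoc1 and 0.41 for Thbs1 with Smoc1. Calcrl was related to Frzb (0.34) and Procr (0.34) but hardly to Thbs1 (0.09). These values are descriptions, because the same cells defined the score.

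Promoter sequences are shown for the Frzb-side genes Frzb, Calcrl and Procr, which lie on chromosome 2 and were selected together by the score. They are RefSeq promoters of GRCm38.p6, 250 bases before to 50 bases after the RefSeq start, read 5′ to 3′ on the strand of the gene. The RefSeq starts differ from the GENCODE M21 starts given above. More than 50 bases of each window therefore lie inside the gene as placed there. They lie at chr2:80447347-80447646 for Frzb, chr2:84425217-84425516 for Calcrl and chr2:155750967-155751266 for Procr. Capitals mark matches on either strand to CACCC, a core bound by Krüppel-like factors, to GGAAG, a core bound by ETS factors, and to TATAAA.
Frzb: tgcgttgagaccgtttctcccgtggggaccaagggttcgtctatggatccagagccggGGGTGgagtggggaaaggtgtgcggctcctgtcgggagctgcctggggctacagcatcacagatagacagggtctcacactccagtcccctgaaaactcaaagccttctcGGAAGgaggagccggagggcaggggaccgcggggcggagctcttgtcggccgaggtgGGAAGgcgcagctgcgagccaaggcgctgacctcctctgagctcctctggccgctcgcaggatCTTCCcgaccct
Calcrl: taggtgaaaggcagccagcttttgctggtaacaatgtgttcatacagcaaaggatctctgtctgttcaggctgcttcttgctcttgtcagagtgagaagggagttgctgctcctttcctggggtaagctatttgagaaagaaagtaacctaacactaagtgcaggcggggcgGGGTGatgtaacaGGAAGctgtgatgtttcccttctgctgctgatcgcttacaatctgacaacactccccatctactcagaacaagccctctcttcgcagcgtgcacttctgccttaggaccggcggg
Procr: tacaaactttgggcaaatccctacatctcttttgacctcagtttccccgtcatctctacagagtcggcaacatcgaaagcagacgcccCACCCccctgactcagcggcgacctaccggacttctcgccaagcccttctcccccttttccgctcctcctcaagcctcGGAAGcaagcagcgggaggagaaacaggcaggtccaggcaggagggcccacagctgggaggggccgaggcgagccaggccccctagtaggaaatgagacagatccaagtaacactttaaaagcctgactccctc
Each of these windows held 1 match to CACCC, and GGAAG was matched 3 times at Frzb and 1 time each at Calcrl and Procr, while TATAAA was not matched. Over 32817 promoters of that length, CACCC was matched in 57.5%, GGAAG in 71.4% and TATAAA in 13.6%, so these matches are common. The Gkn3 promoter held none of the 3.

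The share of members among eligible cells was higher in KO than in WT in both sorts, which 2 samples a group are too few to test. In WT it was 20 of 60 (33.3%, exact 95% binomial interval 21.7 to 46.7) in sort 1 and 12 of 45 (26.7%, 14.6 to 41.9) in sort 2. In KO it was 128 of 280 (45.7%, 39.8 to 51.7) in sort 1 and 38 of 82 (46.3%, 35.3 to 57.7) in sort 2. The difference of the means was 16.03 percentage points, with 12.4 in sort 1 and 19.7 in sort 2. The exact two-sided permutation test gave p = 0.333, the smallest value that 2 samples against 2 allow, whatever the size of the difference, and the intervals cover counting error only. Without the Nr2f2 or Cd36 wells the shares were 17.02% (8 of 47), 27.3% (12 of 44), 46.9% (122 of 260) and 46.8% (37 of 79) in WT sort 1, WT sort 2, KO sort 1 and KO sort 2, a difference of 24.7 points. Leaving out each of the 10 score genes in turn gave differences of 14.98 to 21.6 points.

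The limit on MHC class II genes weighed on the samples unequally. It removed 155 of the Cdh5-positive wells of WT sort 1 (72.1%), 3 of WT sort 2, 7 of KO sort 1 and 7 of KO sort 2. Of these 172 excluded wells 55 scored above the threshold when placed on the same scale, and in WT sort 1 these were 46 of 155 (29.7%). With the limit dropped, the difference between KO and WT shares was 19.2 points.

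Outside the score genes, members had higher levels than the rest of Nkx2-3, Twist1, G0s2, Aldh3a1 and Ackr4 in every sample, and lower levels of Sox17, Adra2a and Igf2. These genes are a description with no test, since the same cells were divided by the score. Of 8501 genes with a mean of at least 10 CPM, 15 (0.176%) were at least 2-fold above the rest in every sample and 35 (0.412%) at least 2-fold below. Among these were 2 genes and 4 genes of the score, which leaves 13 and 31. Without regard to size, 643 genes (7.56%) were above the rest in all 4 samples and 763 (8.98%) below.

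Nkx2-3 and Twist1 were the transcription factors among the 12 genes with the largest median ratios. Nkx2-3, a homeobox factor known from endothelium of spleen and gut, was at 12.1, 121, 83.1 and 55.2 CPM in members of WT sort 1, WT sort 2, KO sort 1 and KO sort 2, and at 1.82, 27.2, 21.8 and 8.61 CPM in the rest. Its log2 ratio was between 1.93 and 2.66, and it was counted in 60.6% of members and 23.05% of the rest. Twist1, a basic helix-loop-helix factor of mesenchyme, was at 36.0, 47.2, 23.5 and 77.1 CPM in members and at 5.60, 11.8, 5.49 and 1.68 CPM in the rest. Isl1, a LIM homeobox factor of the second heart field, was at 43.2, 191, 128 and 144 CPM in members and at 38.4, 57.3, 34.6 and 26.7 CPM in the rest. Isl1 was thus less than 2-fold higher only in WT sort 1, where its log2 ratio was 0.17 and became 1.31 without the Nr2f2 or Cd36 wells. Nkx2-3 was not counted in the Cd31-Cd45- cells, and Isl1 was there at 0 to 6.63 CPM.

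Plvap, the protein of the diaphragms of fenestrae and caveolae, was at 1079, 510, 664 and 420 CPM in members and at 189, 193, 286 and 222 CPM in the rest, with no overlap between classes. In members of WT sort 1 it was at 377 CPM without the Nr2f2 or Cd36 wells, and its log2 ratio there went from 2.51 to 1.65. Slco2a1, the prostaglandin transporter, was at 705, 473, 524 and 630 CPM in members and at 225, 254, 319 and 216 CPM in the rest. Ackr4, a scavenging receptor for the chemokines of lymph node homing, was at 18.9, 13.5, 45.6 and 76.4 CPM in members and at 1.82, 4.49, 18.4 and 23.5 CPM in the rest. Icosl, the ligand of the T cell costimulator ICOS, was 1.08 to 2.88 higher on the log2 scale, and 0.54 higher in WT sort 2 without the deepest well. Gpr182, a chemokine-scavenging receptor of sinusoidal and lymphatic endothelium, was at 166, 6.07, 40.7 and 10.2 CPM in members and at 12.4, 5.81, 8.29 and 0.42 CPM in the rest. In WT sort 2 its log2 ratio was therefore 0.06. Gpr182 was at 7.47 CPM in members of WT sort 1 and at 0.55 CPM in the rest without the Nr2f2 or Cd36 wells. The sialomucin Emcn was higher in 3 samples and lower in WT sort 2, with log2 ratios of 3.13, -0.89, 1.97 and 1.72.

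Among enzymes, Aldh3a1, an aldehyde dehydrogenase, was at 170, 204, 298 and 197 CPM in members and at 72.8, 89.1, 76.8 and 75.6 CPM in the rest. It had the highest mean level of the genes at least 2-fold above the rest in every sample that were not used for the score. G0s2, an inhibitor of adipose triglyceride lipase, was at 33.5, 55.4, 58.8 and 75.01 CPM in members and at 5.99, 9.74, 8.81 and 5.67 CPM in the rest. The glutathione transferase Gstm5 was 1.13 to 2.19 higher on the log2 scale. Adam33, Abi3bp and Glt8d2 were also at least 2-fold higher in every sample, but all of these had low levels, with members at 9.39 to 41.8 CPM for Adam33, 13.9 to 90.9 for Abi3bp and 12.9 to 34.8 for Glt8d2. Without the deepest well the log2 ratio of Glt8d2 in WT sort 2 was -1.80 and that of Zranb3 -5.03. The member level of Abi3bp in WT sort 1 was 4.15 CPM without the Nr2f2 or Cd36 wells, in place of 51.8. In Cd31-Cd45- cells Abi3bp was at 98.2 to 341 CPM, Adam33 at 27.0 to 43.6 CPM and Glt8d2 at 0 to 192 CPM. The part of such cells in the differences of these genes was not tested. Of the 12 genes with the largest median ratio, Zranb3, Vwc2 and Got1 were counted in 8.08% to 13.1% of members.

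**Figure D4:**
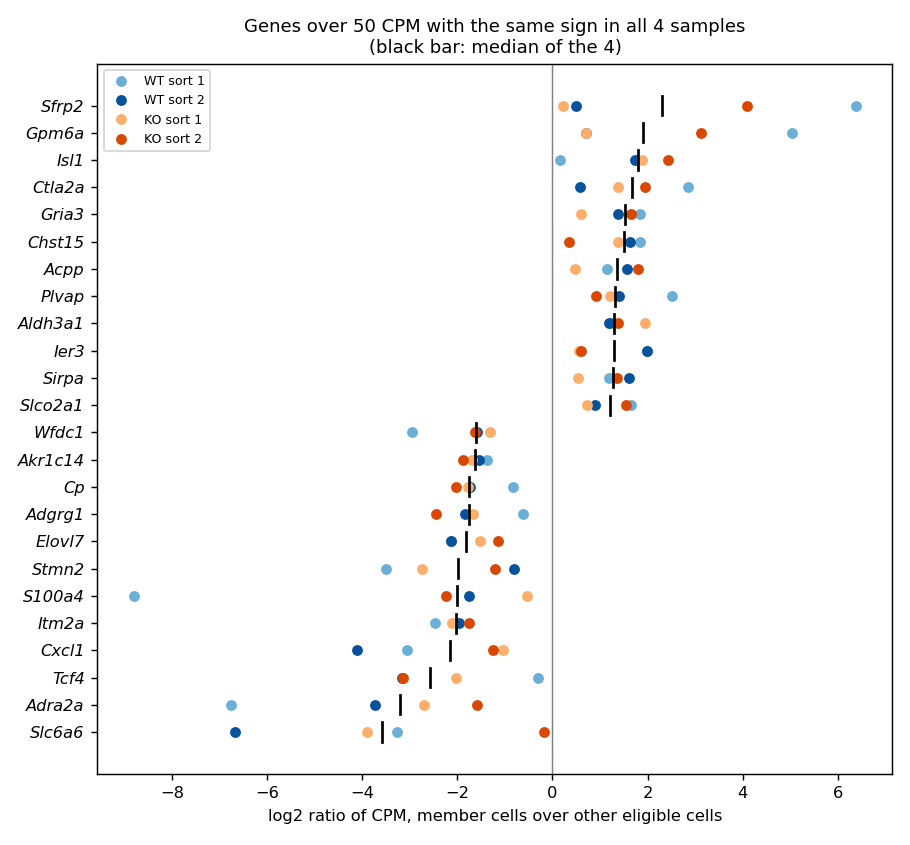
Log2 ratio of CPM in members to CPM in the rest for the 24 genes with the largest median ratios, 12 higher and 12 lower, among genes with a mean of at least 50 CPM and the same sign in all samples, score genes left out. Each circle is a sample and the black bar the median of the 4; Isl1 and Tcf4 came near 0 in WT sort 1 (0.17 and -0.31) and Sfrp2 spread from 0.22 to 6.39, while Aldh3a1 stayed between 1.19 and 1.95 and Itm2a between -2.47 and -1.76.

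Among the genes lower in members, Sox17, a factor of arterial identity, was at 37.1, 110, 98.6 and 106 CPM in members of WT sort 1, WT sort 2, KO sort 1 and KO sort 2, and at 237, 231, 244 and 246 CPM in the rest. The levels in the rest were nearly equal, and every member sample lay below them. Without the Nr2f2 or Cd36 wells Sox17 was at 86.3 CPM in members of WT sort 1, with a log2 ratio of -1.52. Adra2a, the alpha-2A adrenergic receptor, was at 1.78, 12.1, 26.3 and 60.0 CPM in members and at 206, 163, 171 and 181 CPM in the rest. Igf2, the insulin-like growth factor, was at 6.42, 7.63, 13.7 and 25.9 CPM in members and at 108, 69.1, 86.2 and 54.8 CPM in the rest. Vegfc, the lymphatic growth factor, was lower by a log2 ratio of -3.62 to -1.03.

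Stmn2, a microtubule-destabilising stathmin, was at 68.2, 350, 68.7 and 289 CPM in members and at 770, 613, 462 and 671 CPM in the rest. Cp, the copper ferroxidase ceruloplasmin, was at 687, 450, 241 and 418 CPM in members and at 1217, 1488, 820 and 1703 CPM in the rest. Tcf4, a basic helix-loop-helix E protein, was counted in 34.3% of members and 85.1% of the rest. Its member level was 247 CPM in WT sort 1 and 18.01 to 43.9 CPM in the other 3 samples. Without the Nr2f2 or Cd36 wells its log2 ratio in WT sort 1 changed from -0.31 to -2.15, and that of the adhesion receptor Adgrg1 from -0.61 to -2.26.

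Among the eligible cells, several genes were nearly confined to the rest in these libraries. Ptchd1, a patched-domain membrane protein, was at 3.93 CPM in members of WT sort 1 and at 0 in members of the other 3 samples, against 68.5, 34.6, 23.8 and 37.6 CPM in the rest. Dkk2, a secreted Wnt antagonist, was at 0.25 CPM in members of KO sort 1 and at 0 in the other 3 samples, against 160, 18.9, 25.05 and 33.4 CPM in the rest. The matrix proteoglycan Vcan was at 0, 3.91, 0 and 0 CPM in members and at 156, 43.3, 26.9 and 3.15 CPM in the rest. Vcan was at 26.3 to 210 CPM in Cd31-Cd45- cells, and the part of such cells was not tested. Ptchd1 was counted in 18.2% of cells of the rest, Dkk2 in 8.55% and Vcan in 9.29%, so they mark minorities. The elongase Elovl4 and the mitotic gene Ube2c belonged to the same group of 12 genes with the smallest ratios, and Ube2c rested on 1.86% of cells of the rest.

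Ramp2, the partner protein that makes Calcrl an adrenomedullin receptor, was at 1231, 1479, 1169 and 1659 CPM in members and at 931, 1099, 883 and 1063 CPM in the rest. Its log2 ratio was 0.40, 0.43, 0.41 and 0.64. Of the 6 genes of the adrenomedullin and CGRP list above 10 CPM, Calcrl and Ramp2 were higher in all 4 samples and none was lower. Of 9 protein C and anticoagulant genes, Procr and Tfpi, the tissue factor pathway inhibitor, were higher in all 4 samples, and thrombomodulin (Thbd), the partner of Procr in protein C activation, had a median log2 ratio of 0.06. Of 12 Wnt genes, Frzb, Sfrp2 and Ctnnb1 were higher in all 4 samples and Dkk2 and Tcf7l1 lower. Sfrp2, a secreted Wnt antagonist related to Frzb, was at 141 to 1615 CPM in Cd31-Cd45- cells and at 75.6 to 334 CPM in members, and the part of such cells was not tested. Of 15 thrombospondin and TGF-beta genes, Thbs1 and the receptors Tgfbr2 and Tgfbr3 were higher in all 4 samples and Ltbp4 and Smad7 lower, with a median of -0.17. Of 12 BMP genes, Smoc1, Gdf6 and Id3 were higher in all 4 samples and none was lower. In these counts Calcrl, Procr, Frzb, Thbs1 and Smoc1 belong to the score, which selected the members on them. Over all 8501 genes, 7.56% were higher and 8.98% lower in all 4 samples.

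The counts of the following lists stand beside 7.56% of all genes higher and 8.98% lower in all 4 samples. Of 9 arterial genes 4 were lower in all 4 samples and none higher, with a median log2 ratio of -0.62 against -0.02 over all 8501 genes. These were Sox17, the connexin Gja4, the kinase Bmx and the Notch ligand Dll4. The sample medians of this list include the Nr2f2 or Cd36 wells. They were -1.31 in WT sort 1, -0.21 in WT sort 2, -0.49 in KO sort 1 and -0.36 in KO sort 2. In the same order the arterial genes summed to 1997, 4950, 3955 and 5057 CPM in members. In the rest they summed to 4910, 5244, 4270 and 4527 CPM, so members of KO sort 2 were higher. Gja4 was at 161, 389, 491 and 532 CPM in members and at 842, 781, 691 and 687 CPM in the rest, and the connexin Gja5 was lower in 2 samples and higher in the others. Of 15 elastic fibre and matrix genes 7 were lower in all 4 samples and 2 higher, with a median of -0.56, and both Fbln5 and Col8a1 of that list belong to the score. Outside the score, Eln was at 275, 463, 802 and 552 CPM in members and at 596, 839, 914 and 761 CPM in the rest, and Mgp and Lox were lower in all 4 samples. The fibulin Fbln2 was higher in all 4, by log2 ratios of 0.25 to 0.58.

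Of 19 interferon-induced genes 8 were lower in all 4 samples and none higher, with a median of -0.33. Of 12 immediate early genes, which also respond to tissue digestion, 5 were higher in all 4 samples, with a median of 0.39 that fell to 0.14 after thinning. Of the 12 general endothelial genes 0 were higher and 1 lower in all 4 samples, with a median of 0.00. Of the 8 flow-responsive genes 2 were higher and 0 lower, with a median of 0.07. Of the 8 inflammatory genes 1 was higher and 1 lower, with a median of 0.01. The lower gene was Cxcl1, with log2 ratios of -3.07, -4.11, -1.04 and -1.25 in WT sort 1, WT sort 2, KO sort 1 and KO sort 2. Venous genes had a median of 0.37 over 5 genes with none of the same sign in all samples. The venous median became 0.09 after thinning, and the sample medians ran from -0.76 in KO sort 2 to 0.38 in WT sort 1. Lymphatic markers were almost absent, with only Flt4 above a mean of 10 CPM. The 4 endocardial and valve genes had a median of -2.90, the 5 cell cycle genes -0.06 and the 5 MHC class II genes, of which 4 set the limit on wells, 0.78. The MHC class II median became 0.24 after thinning, and the sample medians ran from -0.29 in WT sort 2 to 1.05 in KO sort 2. For the endocardial and valve genes the sample medians ran from -5.20 in WT sort 1 to 0.21 in KO sort 2. Their median of -2.90 became -1.40 after thinning. Summed, they were lower in members of WT sort 1 (330 against 653 CPM). They were higher in members of WT sort 2 (780 against 452), KO sort 1 (599 against 363) and KO sort 2 (640 against 284).

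The comparison of KO with WT inside the member cells asks what loss of Amotl2 changed in this population. The reporter checked the labels: EYFP was counted in 1 of 20 and 1 of 12 WT members and in 106 of 128 and 37 of 38 KO members. Amotl2, the targeted gene, was at 30.0, 98.1, 55.1 and 52.9 CPM in members of WT sort 1, WT sort 2, KO sort 1 and KO sort 2, so that the genotypes overlapped. It was counted in 9 of 20, 10 of 12, 54 of 128 and 21 of 38 of these cells. Counts sum reads over the whole gene, and which exons were removed was not analysed here. In edgeR's quasi-likelihood test the log2 fold change of Amotl2 in members was -0.25 (SE 0.63, adjusted p = 0.996). In the rest Amotl2 was at 70.8, 90.5, 43.7 and 47.9 CPM in the same sample order, so that the genotypes did not overlap. Its log2 fold change in the rest was -0.82 (SE 0.34, adjusted p = 0.9999 in the same test).

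None of 10629 genes tested passed an adjusted p of 0.05 in member cells (0%), with 472 at an unadjusted p under 0.05. DESeq2 called 19 genes. Without a filter on low counts edgeR called 45. When WT sort 1 was left out 1230 genes were called, and without WT sort 2 1191 were, in fits where the lone WT sample was assumed to vary like the KO pair. In the 2 WT samples the member sums differed by a root mean square of 2.34 on the log2 scale, against 1.08 between the 2 KO samples. The count in member cells thus depended on whether both WT samples were kept.

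Outside the score genes, the smallest p-values among genes higher in KO members belonged to Serpine2, Itga8 and Ctsc. Frzb helped to choose the members, so its values are given as a description with no test. With the levels given above it had a log2 fold change of 1.98 (SE 0.32), with log2 differences of 1.73 in sort 1 and 2.18 in sort 2. Without the Nr2f2 or Cd36 wells the member level of WT sort 1 was 531 CPM in place of 232, and the log2 fold change was 1.30. In the rest the log2 fold change of Frzb was 1.32 (SE 0.38). The value in members exceeded that in the rest by 0.54 (SE 0.42), by 1.08 without WT sort 1 and by -0.01 without WT sort 2.

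Ctsc, the lysosomal protease cathepsin C, was at 3.93, 3.33, 58.0 and 44.7 CPM in members of WT sort 1, WT sort 2, KO sort 1 and KO sort 2, with no overlap of genotypes. In the rest it was at 25.1, 86.1, 27.2 and 66.2 CPM. It was counted in 1 of 20, 1 of 12, 14 of 128 and 13 of 38 members, so its difference rests on few cells. Serpine2, a protease inhibitor, and Itga8, an integrin chain of smooth muscle, were at 0 to 0.20 CPM in WT members and at 34.4 to 95.3 and 15.3 to 82.4 CPM in KO members. Serpine2 was counted in 10 of 128 and 3 of 38 KO members and Itga8 in 5 of 128 and 1 of 38. In Cd31-Cd45- cells Serpine2 was at 829 to 2062 CPM and Itga8 at 1159 to 5619 CPM, and the part of such cells was not tested. Smooth muscle markers were higher in KO members of both sorts for 5 of 7 genes, against 27.7% of all genes tested, and none passed the test. Their median log2 fold change was 1.86 in members and 1.08 in the rest, so a rise was not particular to members.

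The smallest p-values among genes lower in KO members belonged to Zcchc24, Usp25, Cdc42ep2 and Rnf19b. Usp25, a deubiquitinase, was at 148, 148, 38.8 and 46.4 CPM in members, and at 63.7, 56.6, 60.8 and 72.9 CPM in the rest. Both KO member samples lay below both WT member samples, while the genotypes overlapped in the rest. Its log2 fold change was -1.80 in members (SE 0.38, adjusted p = 0.996), and -1.23 without the deepest well of WT sort 2. Zcchc24 was at 112, 95.1, 24.7 and 21.5 CPM in members and at 33.0 to 35.4 CPM in every sample of the rest. Without the Nr2f2 or Cd36 wells its member level in WT sort 1 was 5.81 CPM, and its log2 fold change went from -2.16 to -1.10. Cdc42ep2, an effector of the GTPase Cdc42, was at 118, 61.1, 15.9 and 10.9 CPM in members, and at 21.6 CPM in WT sort 1 without those wells. Immediate early genes were lower in KO members of both sorts for 7 of 13 genes, against 21.4% of all genes tested, and again none passed the test. Their median log2 fold change was -0.76 in members and -0.64 in the rest, so the shift was not particular to members. Within sorts the median in members was -0.09 in sort 1, with 6 of 13 genes higher in KO. In sort 2 it was -1.13, with 0 of 13 higher.

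**Figure D5:**
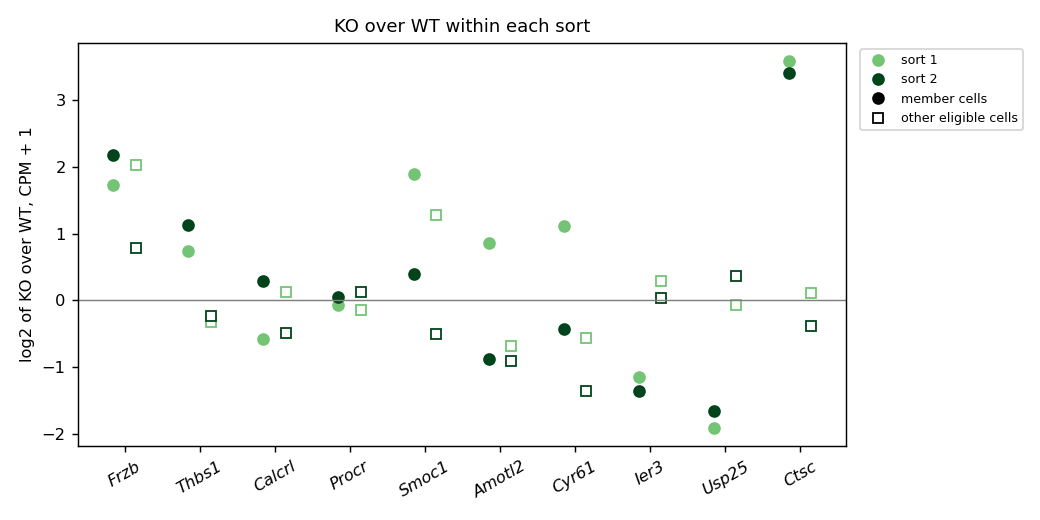
Log2 of KO over WT (CPM + 1) within each sort for the 5 Frzb-side genes, Amotl2 and 4 genes named in the text, with circles for members and squares for the rest, light for sort 1 and dark for sort 2. Frzb was above 0 in both sorts and both classes (0.79 to 2.18), Usp25 was at -1.90 and -1.65 in members and at -0.06 and 0.36 in the rest in sorts 1 and 2, and Amotl2 had opposite signs in the 2 sorts of members (0.86 and -0.88).

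The test of whether the KO effect differed between members and the rest called 0 of 11738 genes (0%) in edgeR, with 525 at an unadjusted p under 0.05, and 21 genes in DESeq2. Leaving out WT sort 1 gave 371 genes and leaving out WT sort 2 gave 258. For the other Frzb-side genes the difference of effects was 1.22 for Thbs1 (SE 0.33), 0.75 for Smoc1 (SE 0.26), 0.03 for Calcrl (SE 0.35) and 0.00 for Procr (SE 0.27) on the log2 scale, again as a description. For Thbs1 it was 1.62 without WT sort 1, 0.82 without WT sort 2 and 0.58 without the Nr2f2 or Cd36 wells. The genes with the smallest p-values were Kif23, Csf2rb2, Pus3 and Cyr61 in the positive direction and Nr2f2, Cdc42ep2, Ier3 and Usp25 in the negative direction. Cyr61, a matricellular target of YAP, was at 729, 3107, 1580 and 2306 CPM in members and at 1073, 2799, 728 and 1096 CPM in the rest. It was lower in KO in the rest of both sorts and not in members of sort 1, where its log2 difference was 1.11. Ier3, an immediate early gene, was at 381, 365, 171 and 142 CPM in members and at 95.4, 91.8, 117 and 93.9 CPM in the rest. Its effect differed by -1.42 (SE 0.32, adjusted p = 0.992). Without the Nr2f2 or Cd36 wells that difference was -0.25, since the member level of WT sort 1 fell to 68.0 CPM. Nr2f2 was in this group through the cells of WT sort 1 described above. Kif23, Csf2rb2 and Pus3 were at 0 in all WT members and were counted in few KO members, at most 11 of 128 in KO sort 1 and 9 of 38 in KO sort 2, both for Pus3.

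In the rest of the cells 3 of 11308 genes passed the test, EYFP and Cd36 higher and Ube2c lower in KO, and DESeq2 called 51. With sort as a replicate block 0 were called. In the rest Cd36 was counted in 0 of 40, 1 of 33, 10 of 152 and 2 of 44 cells, and Ube2c in 5 of 269. EYFP and Cd36 were not called in members, where the log2 fold changes were 2.98 and -2.57 with an adjusted p of 0.996 each. The EYFP level of WT sort 1 members rested on 80 counts in 1 of 20 cells. In the rest the log2 fold change of EYFP was 9.09 (SE 0.80), and the difference of effects was -5.69 (SE 1.87). Cd36 was counted in 8 of 20, 0 of 12, 4 of 128 and 1 of 38 members of WT sort 1, WT sort 2, KO sort 1 and KO sort 2.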

How the data were processed

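The wells hold read counts per gene. Per the labels and the paper's methods the authors aligned Smart-seq2 reads to GRCm38 with STAR 2.7.7a, removed duplicates with Picard 2.22.0 and deposited raw counts from HTSeq 0.9.1; annotation release and strandedness are not given in the sources used here. Of 24519 rows, 92 spike-in and 5 summary rows (1.25% and 46.9% of all counts) were left out. Eligible wells held 20577 to 2000302 gene counts. Counts were summed per sample and class and tested with edgeR 4.0.16 (TMM, quasi-likelihood, Benjamini-Hochberg, threshold 0.05), with DESeq2 1.42.0 as an alternative; scripts were tested on simulated data. Log2 ratios of members to rest used a prior count of 2. The members, gene lists and tests were chosen with earlier results of these data known. Named genes were the score genes, Cdh5, Amotl2 and EYFP, the 12 largest and 12 smallest median ratios with 1 sign in all samples, the 4 smallest p-values in each direction of each test, and list members by level or ratio; genes outside this rule were chosen after their values were seen. A gene that the rule names is not reported here. The labels give a sort number, which was taken to pair the samples. They do not say whether WT and KO of the same sort number shared a preparation. Deviations of samples from the same sort correlated at 0.08 in members and 0.04 in the rest. Doublets were not called, since wells were sorted singly. GENCODE M21 gave coordinates for 96.5% of genes tested.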

Additional observations from a re-analysis of the deposited data

How the results depend on the processing

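Of 29 log2 fold changes of named genes in the 2 KO comparisons, 428 values under alternatives gave 348 on the same side, 56 newly past the threshold and 24 with the other sign. In member cells Calcrl became 0.309 without the Nr2f2 or Cd36 wells and ran from -0.383 to 0.126 when a sample was left out. Procr became 0.0571 after thinning, 0.161 without the MHC limit, 0.121 without the deepest well and 0.0139 without the Nr2f2 or Cd36 wells, and ran from -0.0363 to 0.0250 when a sample was left out. Amotl2 ran from -0.859 to 0.862 when a sample was left out. For the difference of effects, Frzb became -0.0314 without the Nr2f2 or Cd36 wells and ran from -0.0140 (without WT sort 2) to 1.08 (without WT sort 1). Calcrl ran from -0.389 to 0.455 when a sample was left out. Procr became -0.0266 under RLE factors, -0.0257 in DESeq2, -0.188 in wells of at least 100000 counts, -0.140 at a threshold of 0 and -0.105 at 0.6, and ran from -0.186 to 0.195 when a sample was left out. EYFP became 2.87 at a threshold of 0.6 and ran from -11.8 to 0.236 when a sample was left out, and Amotl2 became -0.268 after thinning and -0.208 without the MHC limit.

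Genes called in members numbered 45 without the filter on low counts, 19 in DESeq2 and 0 to 1230 when a sample was left out. Differences of effects numbered 21 in DESeq2, 2 after thinning and 0 to 371 when a sample was left out. In the rest the 3 calls became 83 without the filter, 51 in DESeq2, 5 after thinning, 15 at a threshold of 0, 0 at a threshold of 0.6 and 0 to 129 when a sample was left out. With sort as a replicate block the rest had 0 calls, and the 0 calls in members and for the difference did not change; within sorts the member share differed by 12.4 and 19.7 percentage points. Genes at least 2-fold apart in every sample numbered 34 to 53 higher and 60 to 77 lower when a sample was left out, which asks for fewer samples, and 3 and 14 with a mean of at least 50 CPM. The difference in member share kept its sign in the alternatives run, with differences of means from 12.7 to 24.7 points and within-sort values from 9.29 (score without Col8a1, sort 1) to 29.9 (without the Nr2f2 or Cd36 wells, sort 1). Of 176 alternative list medians 10 moved beyond the spread between samples. The cause of these changes was not tested, and alternatives on the Nr2f2 or Cd36 wells, the deepest well and 50 CPM were chosen after seeing the data. The 12 members of WT sort 2 limit what the WT values can show.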
